A study of Mus musculus with 2 samples.

Results

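Enzymes of the PARP family take ADP-ribose from NAD+ and attach it to proteins and nucleic acids. Interferons are known to induce several of the mono-ADP-ribosylating and macrodomain members, which act in antiviral defence, whereas Parp1, Parp2 and Parp3 are known for their work at DNA breaks. This account covers 9 genes of the 26082 in the deposited tables, found by their symbols: the 6 interferon-linked genes Parp9, Dtx3l, Parp14, Parp10, Parp11 and Parp12, and the 3 DNA-repair genes Parp1, Parp2 and Parp3 as a contrast. All 9 were measured in both libraries, and the mean FPKM (the count scaled for the length of the gene and the size of the library) of each was 1 or more. The 6 interferon-linked genes were all higher in the library labelled TGFBR3 overexpression (the TGFBR3-labelled library) than in the library labelled vector control (the vector-labelled library), from 2.09-fold for Parp10 to 5.26-fold for Parp14 by the ratio of FPKM. The DNA-repair genes lay between 0.974-fold for Parp1 and 1.36-fold for Parp2.

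Both libraries came from primary fibro-adipogenic progenitors (FAPs) of mouse, progenitors of skeletal muscle that can become adipocytes. Both carried the genotype label WT and were in adipogenic differentiation. One was transfected with TGFBR3 overexpressing plasmids and the other with the vector, with 1 library per condition. The differentiation medium of both held insulin at 10 μg/ml, IBMX at 0.5 mM, FBS at 20% and dexamethasone at 0.25 μM. The methods give FACS sorting of hind limb muscle cells as the source of FAPs and C57BL/6 mice 6 to 8 weeks old as the animals. The labels do not give the age for these libraries, nor the number of mice pooled or the hours in the medium. A single library stands for each condition, so replicate spread is unknown and nothing below is tested.

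Total counts were 62321027 for the TGFBR3-labelled and 83779203 for the vector-labelled library. Tgfbr3 itself had 16372 and 21245 counts and stood at 36.9 and 35.1 FPKM, in that order of libraries, which is kept for each pair of values below. Its log2 ratio of (FPKM + 1) was 0.07 (95% counting interval 0.04 to 0.10), below the 0.13 of the median gene. The check thus does not bear out the label of the first library, and every direction below is that of the labels. Whether transcripts from the plasmid would enter these counts is not given in the sources used here. The paper lists its own real-time PCR of TGFBR3 in FAPs given the plasmids or vectors, which was not examined here. The median was taken over 10626 genes whose FPKM reached 1 in each library, and centred values are those after its removal. The FAP markers Pdgfra, Ly6a, Cd34, Dcn, Col1a1, Pdgfrb and Col3a1 were present in both libraries, with a summed FPKM of 1734 and 1945. Of these 7, 2 had a log2 ratio above 0 and 5 below 0. Col3a1 was at least 2-fold lower in the TGFBR3-labelled library (95.8 against 199.5). Col1a1 stood at 467 against 870 FPKM (log2 ratio −0.89), whereas Ly6a was higher, at 1013 against 706. Of 6 leukocyte markers in the files, Adgre1, Tyrobp and Fcer1g had 0 counts in both libraries and Ptprc had 0 and 4 counts. Csf1r had 182 and 210 counts and Laptm5 35 and 19, and the summed FPKM of the list was 0.59 and 0.44. The summed FPKM of 4 endothelial markers was 1.06 and 0.93, and that of 3 muscle cell markers 0.5 and 0.55. Endothelial markers moved in opposite directions, with Kdr at 0.43 and 0.08 FPKM and Cdh5 at 0.58 and 0.84. The 4 adipocyte markers Adipoq, Cfd, Plin1 and Fabp4 had a summed FPKM of 34.8 and 68.0, with Adipoq and Cfd at least 2-fold lower, and their part in the differences below was not tested. In such bulk libraries fewer cells of a type and less RNA per cell cannot be told apart.

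The promoters are shown because the interferon-linked genes were all higher and because interferon-activated factors are known to bind short elements near the starts of such genes. RefSeq windows on GRCm38.p6 (mm10), from 250 bases before to 50 bases after a start, were matched by symbol for 6 of the 9 genes, in 7 windows, while Parp9, Parp10 and Parp14 had no entry. The windows were searched on both strands for the core of the interferon-stimulated response element, GAAANNGAAA, and for the gamma-activated site, TTCNNNGAA, which reads the same on both strands. The core was found in 3.44% of all 32851 windows and the gamma-activated site in 8.30%. Among the 7 windows, 1 held the core and the same window held a gamma-activated site. For Dtx3l, Parp12, Parp1, the first Parp11 window and Parp4, the longest stretch outside annotated exons is printed 5′ to 3′ on the gene's strand, with matches in capitals.
Parp11, first window, chr6:127446590-127446839, plus strand: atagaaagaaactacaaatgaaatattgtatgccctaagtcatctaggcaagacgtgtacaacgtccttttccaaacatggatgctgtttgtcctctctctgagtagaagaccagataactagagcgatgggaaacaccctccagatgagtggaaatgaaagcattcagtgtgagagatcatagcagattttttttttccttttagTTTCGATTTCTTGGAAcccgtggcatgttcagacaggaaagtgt
Dtx3l, chr16:35939207-35939277, minus strand: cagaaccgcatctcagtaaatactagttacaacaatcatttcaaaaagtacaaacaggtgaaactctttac
Parp12, chr6:39118350-39118472, minus strand: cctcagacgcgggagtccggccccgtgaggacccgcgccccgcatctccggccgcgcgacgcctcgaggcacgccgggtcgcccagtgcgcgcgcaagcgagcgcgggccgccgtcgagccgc
Parp1, chr1:180568641-180568923, plus strand: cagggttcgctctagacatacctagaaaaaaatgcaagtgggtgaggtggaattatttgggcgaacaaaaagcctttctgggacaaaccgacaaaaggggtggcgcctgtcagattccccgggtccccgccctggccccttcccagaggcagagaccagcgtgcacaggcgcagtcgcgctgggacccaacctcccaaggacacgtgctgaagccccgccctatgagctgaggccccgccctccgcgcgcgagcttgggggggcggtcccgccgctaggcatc
Parp4, chr14:56575426-56575618, plus strand: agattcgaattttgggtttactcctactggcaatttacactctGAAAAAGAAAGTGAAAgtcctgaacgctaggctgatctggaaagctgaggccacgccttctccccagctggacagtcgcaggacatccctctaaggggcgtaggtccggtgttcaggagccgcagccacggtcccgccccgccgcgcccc

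In the first Parp11 window the core lay on the minus strand with its first base at −44 from the start, and the gamma-activated site began at −37, so that the matches overlap. The second Parp11 window, Parp12, Dtx3l, Parp1, Parp2 and Parp3 held neither set of letters, which says nothing of other elements or of sequence outside these windows. Parp4, a family member outside the 9 genes, is shown because its window held 2 overlapping cores, beginning at −150 and −144, while its log2 ratio was 0.43. Of 7 windows of the other ADP-ribosyltransferases, 1 for each of 7 genes (Tnks had no entry), 1 held the core. A gamma-activated site was likewise found in 1 of them, at −4 in Parp16, whose log2 ratio was −0.22. The windows also differed in base composition, from 42.0% G or C with 5 CpG pairs in the first Parp11 window to 73.7% with 46 CpG pairs in the Parp12 window. The match in Parp11 is a description of letters and no evidence of binding.

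Parp14, Dtx3l and Parp9 sit side by side. Parp14 (ENSMUSG00000034422), which carries macrodomains that bind ADP-ribose and a mono-ADP-ribosyltransferase domain, lies on the minus strand of chromosome 16 (mm10), from 35832874 to 35871544. It had an FPKM of 20.5 in the TGFBR3-labelled library and 3.90 in the vector-labelled library, from 12948 and 3353 counts. The log2 ratio of (FPKM + 1) was 2.13 (95% counting interval 2.09 to 2.18), and without the added 1 it was 2.39. Of the 11213 genes whose mean FPKM reached 1, 69 exceeded Parp14.

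Dtx3l (ENSMUSG00000049502), a ubiquitin ligase that forms a complex with Parp9, lies on the same chromosome from 35926511 to 35939151, also on the minus strand. Its FPKM was 25.0 against 5.19, from 9719 and 2745 counts. The log2 ratio was 2.07 (95% counting interval 2.02 to 2.12), and 2.27 without the added 1. Parp9 (ENSMUSG00000022906), a macrodomain protein with little or no transferase activity of its own, lies from 35938470 to 35972605 on the plus strand. It stood at FPKM values of 29.5 and 10.8, from 9735 and 4857 counts, and its log2 ratio was 1.37 (95% counting interval 1.32 to 1.42). The partners thus differed in ratio, 4.82-fold for Dtx3l and 2.73-fold for Parp9 by the ratio of FPKM. Within a library, the FPKM of Dtx3l was 0.481 of that of Parp9 in the vector-labelled library and 0.850 in the TGFBR3-labelled library.

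The spans of Dtx3l and Parp9 overlap at their 5′ ends by 682 bases on opposite strands, and 458 of these are exonic in both. They make up 8.00% of the exon length of Dtx3l and 9.40% of that of Parp9. The labels describe a library that marks strand, whereas the strand setting of the counting is not given in the sources used here, so reads from these bases could have been left out or given to either gene. Parp14 shares 110 exon bases with the predicted gene Gm49730 on its own strand, which is 1.18% of its exon length.

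**Figure D1:**
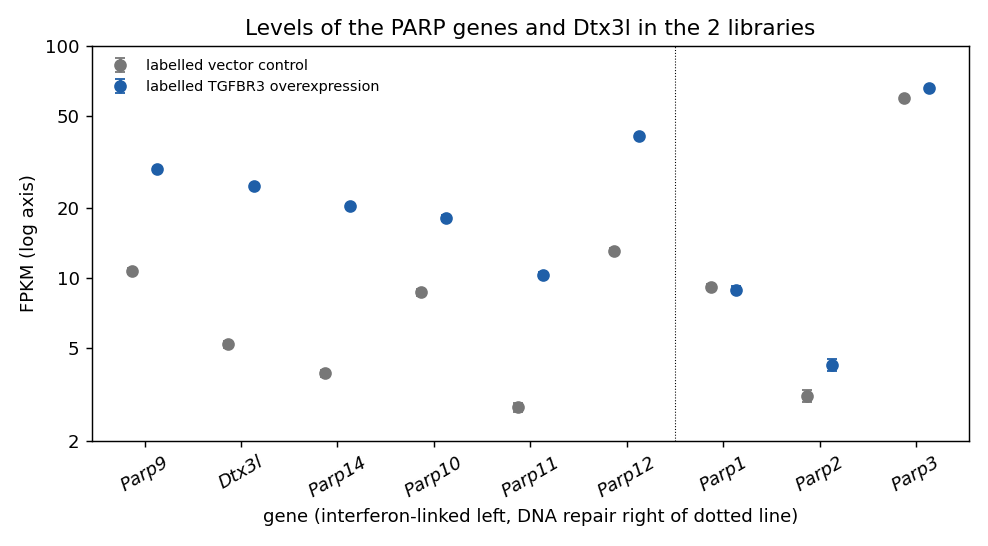
FPKM of each gene on a log axis in the vector-labelled library (gray) and the library labelled TGFBR3 overexpression (blue), 1 library each, where bars are exact Poisson 95% counting intervals and mostly lie within the points. The blue point lies above the gray one for all 6 interferon-linked genes, and the points of Parp1 lie side by side.

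The remaining interferon-linked transferases are encoded elsewhere. Parp12 (ENSMUSG00000038507), a mono-ADP-ribosyltransferase with zinc fingers that bind RNA, lies on chromosome 6 from 39086410 to 39118349 on the minus strand. It was the highest of the 6 per length in both libraries, at FPKM values of 41.1 and 13.1 from 11139 and 4826 counts. Its log2 ratio was 1.58 (95% counting interval 1.54 to 1.63). No other gene overlaps it and none of its 31-base words occurs in transcripts of other genes.

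Parp11 (ENSMUSG00000037997), a mono-ADP-ribosyltransferase with a WWE domain, lies on the same chromosome from 127446840 to 127494261 on the plus strand. It was the lowest of the 9 genes in the vector-labelled library, with an FPKM of 2.78 from 1811 counts, and reached 10.3 from 4928 counts in the other library. The log2 ratio was 1.58 (95% counting interval 1.52 to 1.64), so that Parp11 and Parp12 could not be told apart on this scale. Without the added 1 the values were 1.89 for Parp11 and 1.65 for Parp12, since the added 1 weighs more on the lower gene.

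Parp10 (ENSMUSG00000063268), a mono-ADP-ribosyltransferase with ubiquitin-interaction motifs, lies on chromosome 15 on the minus strand, from 76231174 to 76243441. It stood at 18.1 against 8.69 FPKM, from 5262 and 3435 counts. The log2 ratio was 0.98 (95% counting interval 0.92 to 1.04), just short of 2-fold, and its interval held the threshold of 1. By the ratio of FPKM it was 1.06, or 2.09-fold. With the added 1 kept it was 1.11 as TPM and 0.79 with size factors. The side of the threshold thus depends on the added 1 and on the scaling. Of its exon bases, 205 (4.80% of its exon length) are shared with Plec on the same strand, which stood at 38.06 and 30.96 FPKM.

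The DNA-repair genes lay nearer to the median gene. Parp1 (ENSMUSG00000026496), which builds chains of ADP-ribose at DNA breaks, lies on chromosome 1 from 180568924 to 180601254. Its FPKM was 8.92 in the TGFBR3-labelled library against 9.16, from 3206 and 4484 counts. Its log2 ratio was −0.03 (95% counting interval −0.09 to 0.02), and a difference from 0 was not detectable within counting error. The interval lay below the 0.13 of the median gene, and the centred value was −0.16. With size factors it was −0.29, and only as TPM was it above 0, at 0.03.

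Parp2 (ENSMUSG00000036023), a close relative of Parp1 that also responds to breaks, lies on chromosome 14 from 50807841 to 50821301. It stood at FPKM values of 4.25 and 3.12, from 1049 and 1051 counts, and was the least counted of the 9 genes. The log2 ratio was 0.35 (95% counting interval 0.25 to 0.45), and 0.08 once the trend over GC content was removed. Parp3 (ENSMUSG00000023249), which mono-ADP-ribosylates proteins at double-strand breaks, lies on chromosome 9 from 106470322 to 106476949. It was by far the highest of the 9 genes per length, with FPKM values of 65.8 and 59.7 from 16505 and 20421 counts. Its log2 ratio was 0.14 (95% counting interval 0.11 to 0.17), centred 0.01, and −0.11 with size factors, so that no direction held across scalings.

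**Figure D2:**
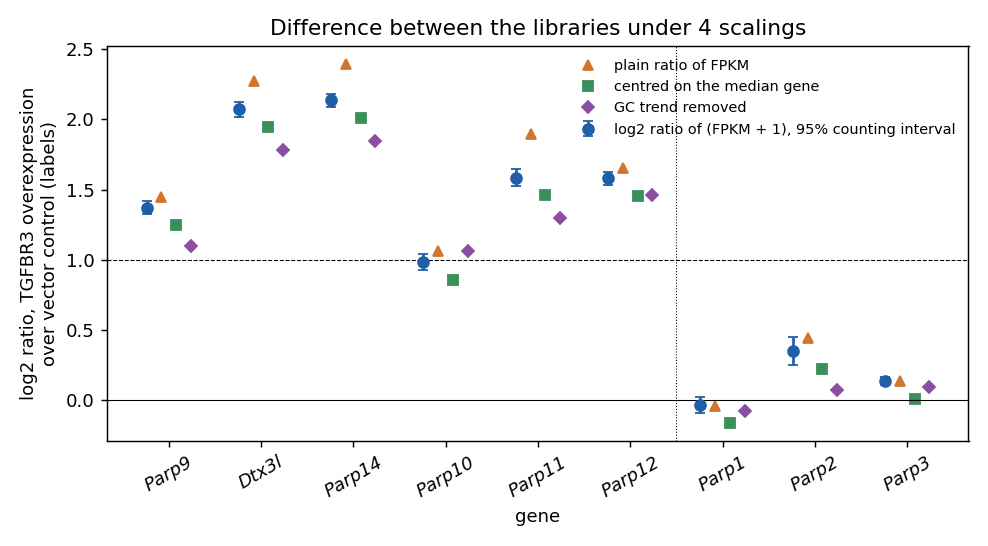
Log2 ratio of the library labelled TGFBR3 overexpression over the library labelled vector control for each gene, as (FPKM + 1) with its 95% counting interval (circles), as the plain ratio of FPKM (triangles), centred on the median gene (squares) and with the GC trend removed (diamonds). Parp10 alone lies on both sides of the dashed 2-fold line, and the 3 DNA-repair genes lie below 0.5 throughout.

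Counted against a threshold of 2-fold on the (FPKM + 1) scale, 5 of the 6 interferon-linked genes were higher and none was lower, and for these 5 the whole counting interval lay past the threshold. Among the 23590 genes with a count in either library, 1.56% were at least 2-fold higher and 0.526% at least 2-fold lower. That split, 369 higher and 124 lower, was 275 and 195 after centring, 390 and 372 with TMM and 368 and 409 with size factors. Over the 11213 genes whose mean FPKM reached 1, the share higher was 3.14%. By the plain ratio, 6 of the 6 were at least 2-fold higher, beside 4.9% of the 10626 genes that reached 1 FPKM in each library. None of the 3 DNA-repair genes was 2-fold higher or lower on either scale. The median log2 ratio was 1.58 for the interferon-linked genes, 0.14 for the DNA-repair genes and 0.14 for the 11213 genes. The genes were chosen with earlier results of these libraries known, so their share describes them and is no test.

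**Figure D3:**
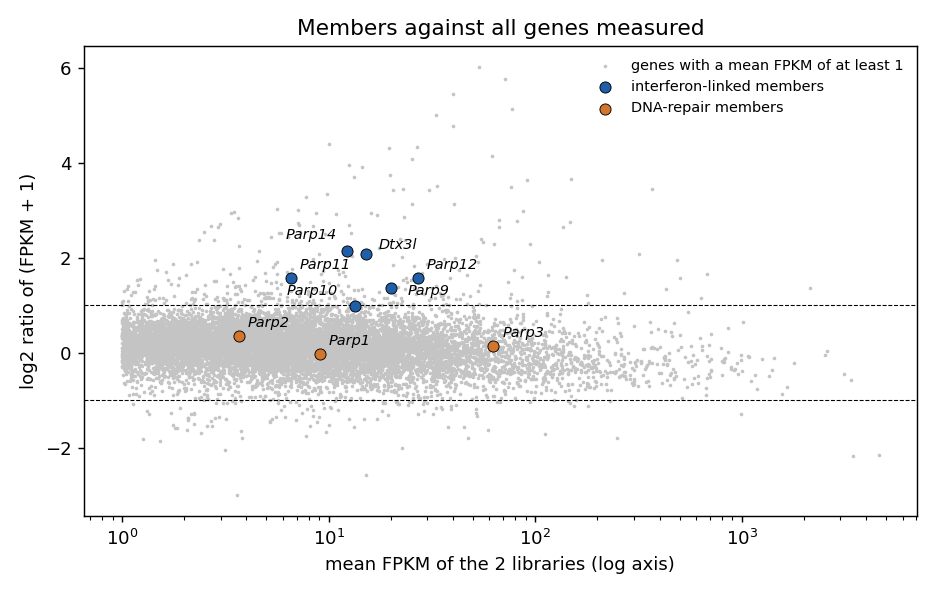
Mean FPKM (log axis) against the log2 ratio of (FPKM + 1) for each gene whose mean FPKM reached 1 (gray), with the interferon-linked genes in blue and the DNA-repair genes in orange, and dashed lines at 2-fold. The blue points sit at 0.98 to 2.13, above the upper dashed line except for Parp10 just under it, with 369 genes above Parp10, while the orange points lie between the dashed lines.

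The order of the levels per length also differed between the libraries. In the library labelled vector control it ran Parp3, Parp12, Parp9, Parp1, Parp10, Dtx3l, Parp14, Parp2, Parp11, and the Poisson intervals overlapped only between Parp1 and Parp10. In the library labelled TGFBR3 overexpression it ran Parp3, Parp12, Parp9, Dtx3l, Parp14, Parp10, Parp11, Parp1, Parp2, with no overlap between neighbors. These intervals hold counting error alone. Parp1 was thus above 4 of the 6 interferon-linked genes in the vector-labelled library, Parp10 within counting error, and below all 6 in the TGFBR3-labelled one.

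Summed over the 6 interferon-linked genes, FPKM was 144.6 in the TGFBR3-labelled library and 44.4 in the vector-labelled library. Summed over the 3 DNA-repair genes it was 78.9 and 72.0. The interferon-linked sum was thus 1.83 times the DNA-repair sum in the first and 0.617 of it in the second. Over the 16 PARP genes measured, the 5 interferon-linked PARP genes made up 46.6% of the summed FPKM in the TGFBR3-labelled library and 27.1% in the vector-labelled library. Parp3 alone made up 25.6% and 41.3%.

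Base composition moved with the ratios across all genes, and its part in these differences was not tested. Over 11207 genes whose mean FPKM reached 1, the median log2 ratio was 0.42 in the lowest of 20 bins of GC content and −0.26 in the highest. The longest transcripts of Parp9, Dtx3l, Parp14 and Parp11 had a GC content of 45.9% to 47.5%, Parp12 had 50.6% and Parp10 57.9%. With this trend removed, the log2 ratio was 1.84 for Parp14, 1.78 for Dtx3l, 1.46 for Parp12, 1.29 for Parp11, 1.10 for Parp9 and 1.06 for Parp10. All 6 were then at least 2-fold higher, and the gap between Parp9 and Parp10 narrowed from 1.37 against 0.98 to 1.10 against 1.06.

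The Parp14, Dtx3l and Parp9 locus spans 139.7 kb, and its neighbors were examined by their position alone. The nearest protein-coding gene beyond Parp9 is Kpna1, which encodes a nuclear import receptor. It stood at 6.34 against 3.44 FPKM, a log2 ratio of 0.73 (95% counting interval 0.67 to 0.78). Wdr5b, beyond it, had 108 and 139 counts (0.58 and 0.55 FPKM) and a log2 ratio of 0.03 (95% counting interval −0.11 to 0.16). Fam162a, at 309 against 378 FPKM, had a log2 ratio of −0.29. On the other side, Hspbap1, at 0.94 and 0.85 FPKM, had a log2 ratio of 0.07 (95% counting interval −0.01 to 0.14). Slc49a4, annotated as Dirc2, had −0.33. Wdr5b and Hspbap1 thus lay below 1 FPKM in both libraries, where the added 1 shrinks a ratio. Sema5b was not analysed here. All 3 genes of the locus were at least 2-fold higher, and none of the 5 flanking genes was 2-fold changed. Among the 23590 genes with a count, 1.56% were at least 2-fold higher and 0.526% lower, so the flanking count is near that share.

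**Figure D4:**
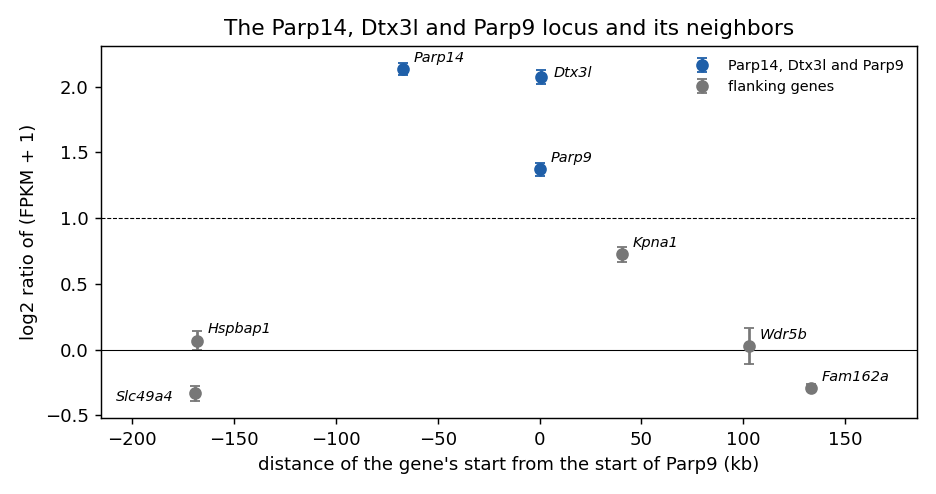
Log2 ratio of (FPKM + 1) with its 95% counting interval against the distance of each gene's start from the start of Parp9, in kb, for Parp14, Dtx3l and Parp9 (blue) and the flanking protein-coding genes (gray). The blue points lie at 1.37 to 2.13 above the dashed 2-fold line and the gray points at −0.33 to 0.73 below it.

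The other genes of the pathway are counted by the log2 ratio of (FPKM + 1), which was above 0 in 63.1% of the 11213 genes whose mean FPKM reached 1 and, centred, in 51.3%. Of those 11213 genes, 3.14% were at least 2-fold higher. Some genes of the lists, such as Parp16, Macrod2, Enpp1 and Dtx1, had a mean FPKM below 1 and lie outside that set. Of the 8 other ADP-ribosyltransferases, 7 had a ratio above 0, 1 had one below 0 and none was 2-fold changed on this scale, with a median of 0.64. By the plain ratio of FPKM, Parp8 (2.24-fold) and Zc3hav1 (2.03-fold) were at least 2-fold higher, and Parp8 stood above Parp10 (2.09-fold). That ratio was 2 or more in 4.9% of the 10626 genes that reached 1 FPKM in each library. Zc3hav1, an RNA-binding antiviral protein of this family without transferase activity, had the highest value of the 8 on the (FPKM + 1) scale. Its FPKM was 20.96 against 10.32, from 9272 and 6214 counts, and its log2 ratio was 0.96 (95% counting interval 0.913 to 0.999). Parp8 stood at 3.12 against 1.39 FPKM (0.79 as log2 ratio), and the tankyrases Tnks2 and Tnks had 0.70 and 0.69. Parp16, which resides in the endoplasmic reticulum, was lower, at 0.67 and 0.95 (log2 ratio −0.22). With the GC trend removed, the median of the 8 was 0.29.

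Of 10 genes that remove or read ADP-ribose, 2 had a log2 ratio above 0 and 8 below 0, none was 2-fold changed and the median was −0.09. Among the 8, the counting intervals of Macrod2 (0.05 and 0.07 FPKM), Nudt16 and Macroh2a1 held 0. Parg, which cleaves chains of ADP-ribose, stood at 5.37 against 3.31 FPKM (log2 ratio 0.56). Macrod1, which removes single ADP-ribose units, had 23.1 and 38.5 and a log2 ratio of −0.71 (95% counting interval −0.79 to −0.64). Adprh stood at −0.23 and Adprhl2 at −0.28.

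For the partners of Parp1 and Parp2 in single-strand break repair, 6 of 11 genes had a log2 ratio above 0 and 5 below 0, none was 2-fold changed and the median was 0.02. Centred, 5 were above 0 and 6 below, with a median of −0.11. The range ran from −0.21 in Lig3, a DNA ligase, to 0.62 in Polb, a repair polymerase. Xrcc1, the scaffold that binds ADP-ribose chains, had 4.51 and 4.55 by FPKM and a log2 ratio of −0.01. Hpf1, which directs Parp1 and Parp2 to serine, had 661 and 593 counts (log2 ratio 0.38).

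The transferases consume NAD+, and 17 genes of NAD+ supply and other NAD+ consumers were measured, while Nmrk2 was not analysed here. On the (FPKM + 1) scale 2 of the 17 were at least 2-fold higher, beside 3.14% of the 11213 genes, and none 2-fold lower. Qprt, Sarm1, Cd38 and Sirt1 are among the 17 but, with a mean FPKM below 1, not among the 11213. Their median log2 ratio was 0.20. By the plain ratio, over 16 genes above 0 in both libraries, 3 were at least 2-fold higher (Nadsyn1 joining, at 2.29-fold). That ratio was 2 or more in 4.9% of the 10626 genes that reached 1 FPKM in each library. Bst1 and Nadsyn1 lie outside that set, at 0.34 and 0.82 FPKM in the vector-labelled library, so the share is not a like background for them. Naprt alone was at least 2-fold lower, at 0.419-fold. Nampt, the rate-limiting enzyme of NAD+ salvage from nicotinamide, stood at 21.2 against 7.73 FPKM, from 7268 and 3611 counts. Its log2 ratio was 1.35 (95% counting interval 1.29 to 1.40), and 0.92 with the GC trend removed, short of 2-fold. Bst1, a surface enzyme that cleaves NAD+, was low in the vector-labelled library, at 2.56 against 0.34 FPKM from 576 and 105 counts. Its log2 ratio was 1.41 (95% counting interval 1.31 to 1.51), and 1.05 with the GC trend removed. Naprt, which makes NAD+ from nicotinic acid, stood at 2.09 against 4.99 FPKM, a log2 ratio of −0.95 (95% counting interval −1.08 to −0.83), which holds the threshold, and −1.08 centred. Qprt, which makes an NAD+ precursor from tryptophan breakdown, had 0 and 7 counts.

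Dtx3l also belongs to the Deltex ubiquitin ligases, and its relatives were measured too. Dtx1, Dtx2, Dtx3 and Dtx4 ranged from −0.08 to 0.19 with a median log2 ratio of −0.01 (centred −0.13, with 1 above 0 and 3 below), and none was 2-fold changed. Dtx4 stood at 6.18 and 5.29 FPKM, and Dtx1 was low at 0.22 and 0.21.

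Of 11 genes of interferon signalling, the pathway known to induce the interferon-linked members, 9 had a log2 ratio above 0 and 2 below 0. The transcription factors Irf7 (3.67) and Stat2 (1.41) were the 2 at least 2-fold higher, beside 3.14% of the 11213 genes. Centred, 7 of the 11 were above 0 and 4 below. Irf9, a partner of Stat2, stood at 26.8 against 13.2 FPKM, a log2 ratio of 0.97 (95% counting interval 0.93 to 1.01), and it passed 2-fold by the plain ratio (2.03-fold). The receptor subunits Ifnar1, Ifnar2, Ifngr1 and Ifngr2 lay between −0.19 and 0.22. The median of the 11 was 0.42.

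**Figure D5:**
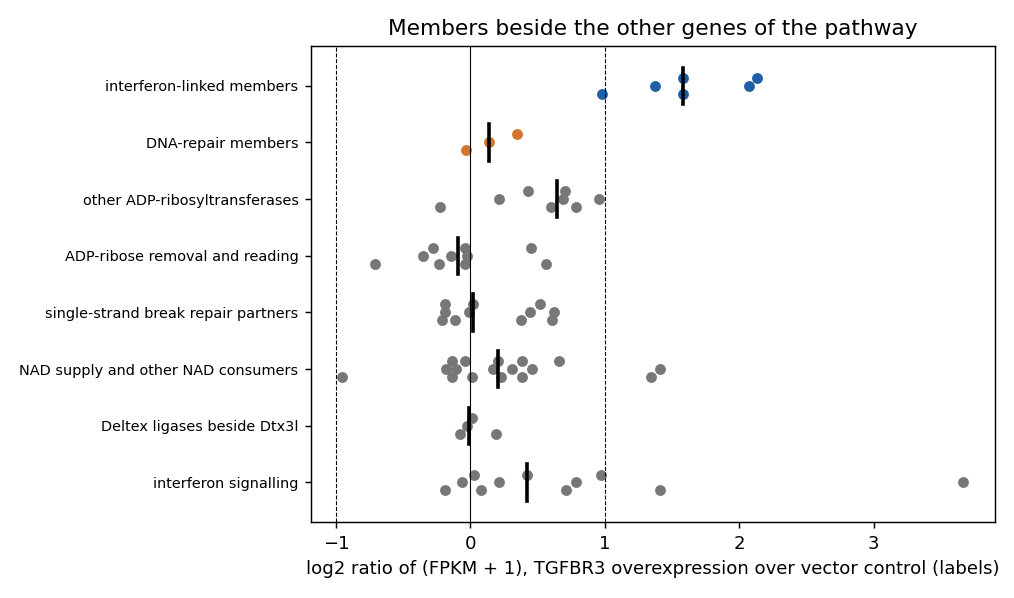
Log2 ratio of (FPKM + 1) of each gene (points, spread vertically for sight only) in 8 lists, with the list's median as a black bar and dashed lines at 2-fold. The interferon-linked members lie from 0.98 to 2.13, beyond every point of the ADP-ribose removal, break repair and Deltex lists. The NAD+ list reaches 1.41 (Bst1) and interferon signalling 3.67 (Irf7), so both overlap the members. Zc3hav1, the highest of the other ADP-ribosyltransferases at 0.96, lies just below Parp10, and their counting intervals overlap.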

How the data were processed

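RNA of 2 mouse FAP cultures was sequenced as 1 library each with paired reads of 150 nt. The authors deposited raw counts per gene and FPKM values rounded to 2 decimals. Their methods name mm10, STAR and FeatureCounts, whereas the submitters' processing notes list cutadapt 1.9, HISAT2 2.2.1, StringTie 2.1.6, DESeq2 and edgeR. The methods name a KC-Digital stranded kit and the labels a poly(A) protocol that marks strand with dUTP. The annotation release, gene filter and strand setting are not given in the sources used here.

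Libraries were compared by log2 ratios of (FPKM + 1), with a threshold of 1 or −1. Intervals of ratios are exact Clopper-Pearson 95% intervals, from how a gene's counts divide between the libraries, and those of levels are Poisson intervals. They cover counting error only, and higher counts make them narrower. Count models were not run, since they need replicates. edgeR 4.0.16 (TMM) and DESeq2 1.42.0 (size factors) gave alternative scalings. Gene models came from GENCODE M21 (mm10), where 99.7% of the deposited identifiers were found, and GC content that of the longest transcript. Trends were removed by the median in 20 bins. The interval and ratio code was tested on simulated counts. The members, lists and the rule for named genes (all members, Tgfbr3, flanking genes, and list genes by size or role) were chosen with earlier results of these data known. One gene of the interferon signalling list is not reported here. Plec and Gm49730 were named afterwards, for their overlap with members.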

Additional observations from a re-analysis of the deposited data

How the results depend on the processing

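No paired analysis was possible because each condition has 1 library. Each gene's value was recomputed under 10 other scalings or pseudocounts. Parp9, Dtx3l, Parp14, Parp11 and Parp12 stayed past 2-fold under all 10, with ranges of 1.10 to 1.496, 1.78 to 2.28, 1.84 to 2.39, 1.29 to 1.89 and 1.38 to 1.70. Parp10 ranged from 0.79 to 1.11, and the count of interferon-linked genes at least 2-fold higher was accordingly 5 or 6. At a 4-fold threshold it was 2. No DNA-repair gene was 2-fold changed under any of them. The median of the interferon-linked genes was 1.72 as CPM, 1.49 with size factors, 1.38 with the GC trend removed, 1.52 with TMM, 1.78 as TPM, 1.42 with the length trend removed, 1.46 centred, 1.77 as the plain ratio, and 1.77 and 1.75 with pseudocounts of 0.01 and 0.1. The median of the DNA-repair genes was −0.11 with size factors, −0.083 with TMM, 0.075 with the GC trend removed, 0.031 with the length trend removed, 0.0099 centred and 0.21 as TPM.

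Over all genes, 369 were at least 2-fold higher and 124 lower. The numbers higher and lower were 638 and 197 as CPM, 1069 and 246 as TPM, 4933 and 2750 with a pseudocount of 0.01, and 2061 and 798 with one of 0.1. At 1.5-fold they were 1685 and 608, and at 4-fold 77 and 6. The number higher was 237 with the GC trend removed. They were 275 and 195 centred, 390 and 372 with TMM, and 368 and 409 with size factors. For the pathway lists, the plain ratio, centring and removal of the GC trend were added after seeing the data, and their counts stand beside the lists. The cause of these shifts was not tested. The counting intervals hold no spread between cultures.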
